A study of Mus musculus with 8 samples.

Results

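H3K9ac, the acetylated form of lysine 9 in histone H3 that is typical of promoters in use, was examined at the genes of the mitogen-activated protein (MAP) kinase cascades and of the dual-specificity phosphatases (DUSPs). The set was every region of the deposited table whose gene name begins with Map2k, Map3k, Map4k, Mapk or Dusp, except Dusp1. It held 58 of 11251 regions and 53 gene names, 48 of them with 1 region and 5 with 2 regions. The 5 genes are Dusp6, Dusp12, Map2k6, Map3k2 and Map3k3. Their regions are told apart here by the distance of the region's centre from the nearest annotated transcription start. At Map2k6 the distances are from different starts. Its regions, both inside the gene, lie at chr11:110399631-110400282 (855 bp) and chr11:110476501-110477625 (-1452 bp). The choice used gene names and no measured value, but was made with earlier results of these data known.

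The libraries came from intestinal epithelial cells, isolated from the terminal ileum. All mice were wild type, of the strain C57Bl/6. Butyrate, an inhibitor of histone deacetylases that gut bacteria release as a short-chain fatty acid, was given to the butyrate group at 150 mM for 7 days, and the vehicle group was given vehicle. Each group had 3 H3K9ac libraries, called S4 to S6 (butyrate) and S1 to S3 (vehicle) in the deposited table, and the input of each treatment was left aside. The sources used here give neither age nor sex of the mice nor the route of treatment. Whether the libraries stem from separate mice is not stated in the labels, so p-values cover only library-to-library spread, which may be partly technical. The cells were a bulk mixture of the epithelial cell types, so fewer cells carrying the mark at a region and less of the mark per cell cannot be told apart.

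In a MAP kinase cascade, a MAP kinase kinase kinase (MAP3K) phosphorylates a MAP kinase kinase (MAP2K), which phosphorylates and activates a MAP kinase. The main outputs are the ERK kinases, downstream of growth factor receptors and Ras, and the JNK and p38 kinases, which respond to stress, cytokines and bacterial products. DUSPs of the MAP kinase phosphatase type remove the activating phosphates again, and several of them are themselves induced by the pathway as negative feedback. In the intestinal epithelium, ERK signalling is known for its part in the proliferation of crypt cells, and p38 and JNK for their part in responses to injury and inflammation.

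The values are RPKM, reads per kilobase scaled by library depth, so that they can be set side by side between regions of different length. They correspond to 1255251 to 1596958 reads in regions in the butyrate libraries and 1261630 to 1828591 in the vehicle libraries. The member regions took 0.655% to 0.659% of those reads with butyrate and 0.653% to 0.661% with vehicle. In the deposited values the sum over all regions was nearly equal in all 6 libraries (a spread of 1.28%). The sources used here do not state which depth the scaling used. Whether a change shared by all regions could be seen is therefore not known, and each difference is read as relative to the other regions. All 12 markers of intestinal epithelium that were looked up had a region, against 2 of 10 leukocyte markers (Ptprc and Laptm5) and 1 of 10 markers of stroma, muscle and endothelium (Vim). The other markers of those lists were not analysed here. The 12 epithelial markers summed to 59.5 to 65.6 RPKM in butyrate libraries and 63.4 to 67.1 RPKM in vehicle libraries, and the 2 leukocyte markers to 1.76 to 3.06 RPKM with butyrate and 1.66 to 2.30 RPKM with vehicle. The part of cell composition in the differences given here was not tested.

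The DNA around the start is shown for 4 regions, each of which covers the start itself. The upstream end of the Map3k4 window reaches past its region. Map3k21, Map3k4 and Mapk13 were the tested members whose butyrate libraries all lay below all vehicle libraries. They were 3 of 56 tested members (5.36%, against 6.85% of the table), and none passed the adjusted test. Dusp8 had the densest H3K9ac of all members. The windows are RefSeq sequence of the build GRCm38.p6 (the same assembly as mm10, the build named in the submitters' processing notes), from 250 bases before to 50 after the start, 5′ to 3′ on the strand of the gene. Capitals mark the SP/KLF box GGGCGG on either strand and, in Dusp8, the palindrome TGACGTCA, a cyclic AMP response element (CRE). The windows lie at chr8:125910200-125910499 on the plus strand (Map3k21), chr17:12318611-12318910 on the minus strand (Map3k4), chr17:28769067-28769366 on the plus strand (Mapk13) and chr7:142095235-142095534 on the minus strand (Dusp8).
Map3k21: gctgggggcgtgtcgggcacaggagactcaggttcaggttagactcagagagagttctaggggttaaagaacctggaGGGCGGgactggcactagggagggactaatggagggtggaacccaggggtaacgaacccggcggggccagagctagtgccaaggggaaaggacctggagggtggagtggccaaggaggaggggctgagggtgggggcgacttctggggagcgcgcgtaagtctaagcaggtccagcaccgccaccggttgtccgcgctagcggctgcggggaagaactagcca
Map3k4: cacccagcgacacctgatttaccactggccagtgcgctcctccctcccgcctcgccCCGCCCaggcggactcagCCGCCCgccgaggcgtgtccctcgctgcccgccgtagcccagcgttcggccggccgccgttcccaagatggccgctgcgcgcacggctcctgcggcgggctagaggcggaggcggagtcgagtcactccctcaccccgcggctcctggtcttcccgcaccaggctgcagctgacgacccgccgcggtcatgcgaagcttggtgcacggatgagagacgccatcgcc
Mapk13: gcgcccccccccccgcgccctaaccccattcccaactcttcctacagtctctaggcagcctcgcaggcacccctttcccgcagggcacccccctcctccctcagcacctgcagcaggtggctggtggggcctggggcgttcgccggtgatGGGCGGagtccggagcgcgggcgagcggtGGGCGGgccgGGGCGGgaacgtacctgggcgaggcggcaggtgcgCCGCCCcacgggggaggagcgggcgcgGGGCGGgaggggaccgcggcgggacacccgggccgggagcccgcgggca
Dusp8: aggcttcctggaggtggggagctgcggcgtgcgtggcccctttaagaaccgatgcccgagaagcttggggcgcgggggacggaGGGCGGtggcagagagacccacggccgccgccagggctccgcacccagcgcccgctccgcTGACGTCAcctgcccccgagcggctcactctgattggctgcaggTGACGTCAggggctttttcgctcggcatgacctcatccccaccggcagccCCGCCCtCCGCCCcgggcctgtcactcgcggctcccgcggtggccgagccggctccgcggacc

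These windows are rich in G and C, at 64% in Map3k21, 72.7% in Map3k4, 78% in Mapk13 and 73.3% in Dusp8. The Map3k21 window held 1 GGGCGG, that of Map3k4 2, that of Mapk13 5 and that of Dusp8 3, counting both strands. A window was at hand for 45 of the 53 genes. For 39 genes a window overlapped the gene's own region, and these windows numbered 45, as some genes have more than 1. Of these 45 windows 33 (73.3%) had the SP/KLF box. The share was 66.7% of the 9294 windows that overlap a region of the table and 35.7% of all 32851 windows. The ETS core CGGAAG, the kind of site bound by the ERK substrates of the ETS family, was in 13.3% of the 45 member windows. It was in 35.2% of windows in regions and 16.9% of all windows. The AP-1 site TGANTCA was in 2.22%, 4.65% and 7.81% of the same 3 sets. The E-box CACGTG was in 2.22%, 10.2% and 7.15%, the NRF1 motif in 13.3%, 6.06% and 2.27%, and the CArG box of SRF in 2.22%, 1.26% and 1.63%. The CRE core TGACGT was in 17.8%, 13.1% and 7.51%. It is part of the palindrome TGACGTCA, which reads alike on both strands and which was looked for after the windows had been seen. The Dusp8 window held 2 copies and is among 8 of the 9294 windows in regions (0.0861%) with at least 2, and no other member window held any. Such matches describe letters in these windows and do not show that a factor binds there.

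Most members were promoter regions of their own gene. Of the 58 regions, 46 (79.3%, against 68.5% of the table) covered a GENCODE start of the gene they were named for, and 55 (94.8%, against 90.6%) had their centre within 5 kb of a start. The deposited annotation, which goes by the centre, put 28 in an intron, 14 at a promoter, 6 in a 5′ UTR, 5 in an exon and 5 between genes. The centre lay downstream of the start in 45 regions (77.6%, against 78.1% of the table). Members were 500 to 5412 bp long with a median of 1620 bp, against 1417 bp for the table. The longest, over the start of Dusp6, covered 68.4% of that gene. The next longest were Map3k1 (5165 bp), Mapk6 (4797 bp) and Mapk13 (4516 bp). Median GC content was 55.7% in members and 52.2% in the table. Across the 58 members, length and mean RPKM had a Spearman correlation of 0.57, and CpG density and mean RPKM one of 0.48, against 0.54 and 0.67 over all regions of the table, whose values come from the same 6 libraries.

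**Figure D1:**
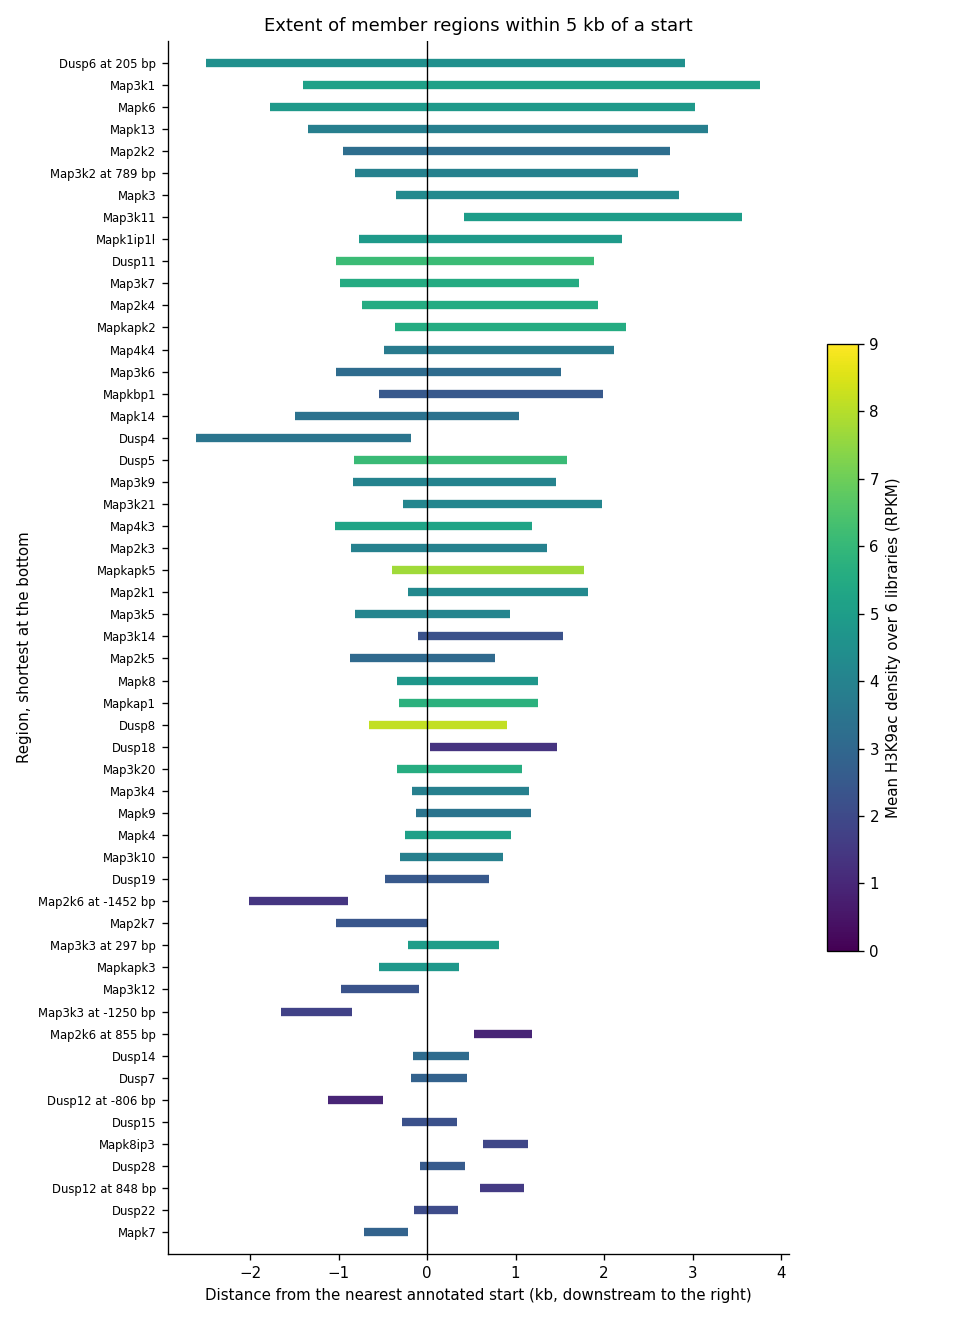
Extent of the member regions within 5 kb of a start, as distance in kb from the nearest annotated start (0, downstream to the right), with the longest at the top. Colour gives the mean RPKM over the 6 libraries. Most bars cross 0 and reach further downstream than upstream, and the densest are Dusp8 at 8.19 RPKM and Mapkapk5 at 7.72 RPKM.

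Some regions lay apart from the start of the gene they are named for. The region of Dusp6 at -29863 bp and that of Map3k2 at -8886 bp lay outside their genes, while the Map3k13 region, at -45736 bp from the nearest annotated start, lay inside that gene by GENCODE. The regions of Dusp12 flanked its start with a gap of 1090 bp between them, and those of Map3k3 were 629 bp apart. In 3 regions the start of a further coding gene was also covered, namely Gm9925 at Mapk4, Adam1a and Gm42878 at Mapkapk5, and Nup35 at Dusp19. Starts of non-coding genes were covered at Dusp8 (Gm32786), Dusp5 (AC137853.2), Map3k1 (Gm15327), Dusp11 (Gm19265), Map3k9 (4930423D22Rik) and Map3k11 (AC134563.1). They were also covered at Mapk6 (4933433G15Rik), Map2k3 (Map2k3os), Mapk1ip1l (Gm9502), Map3k13 (Gm26744) and Dusp6 at -29863 bp (Gm34777). Reads at all these regions cannot be given to 1 of the genes.

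RefSeq lists 77 protein-coding mouse genes under these name beginnings, and 53 of them (68.8%, against 41.2% of all coding genes) had a region of their name. Coverage by role was 7 of 7 MAP2Ks, 3 of 3 MAPK-activated kinases, 15 of 19 MAP3Ks, 7 of 10 classical MAP kinases, 2 of 3 atypical MAP kinases, 5 of 9 MAP kinase phosphatases, 8 of 14 other DUSPs, 4 of 7 scaffold or binding proteins and 2 of 5 MAP4Ks. Another 5 genes had their start under a region named for a neighbour. These were Dusp10, a phosphatase of JNK and p38 (4.02 ± 0.27 RPKM with butyrate and 4.32 ± 0.40 with vehicle, SD, n = 3 each), and Dusp16, another JNK phosphatase (6.04 ± 0.68 and 5.97 ± 0.12). The others were Map4k5, Dusp13 and Mapk1ip1. Their log2 fold changes lay between -0.08 (Dusp10) and 0.05 (Map4k5), with libraries of both groups overlapping at all 5. The remaining 19 genes were not analysed here.

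H3K9ac at the members was denser than at most regions. Their median level was 3.86 RPKM over the 6 libraries, against 3.09 RPKM for the table, and 38 of 58 (65.5%) lay above the table's median. At or above 5.17 RPKM, the level reached by the top 10% of the table, were 10 members (17.2%). In descending order these were Dusp8 at 8.19 RPKM, Mapkapk5 at 7.72, Dusp11 at 6.14, Dusp5 at 6.09, Mapkap1 at 5.73, Map3k20 at 5.61, Map2k4 at 5.54, Mapkapk2 at 5.53, Map3k7 at 5.50 and Map4k3 at 5.26. The sparsest were the regions of Dusp12 at -806 bp (0.930 RPKM) and of Map2k6 at 855 bp (0.932 RPKM). In the whole order of levels, 56 of the 57 neighbouring pairs overlapped in their ranges over the 6 libraries, and the exception was the step between Mapkapk5 and Dusp11. By role, the median level was highest in the 3 MAPK-activated kinases (5.53 RPKM) and lowest in the 9 regions of the other DUSPs (2.22 RPKM), which were also the shortest, with a median of 628 bp.

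**Figure D2:**
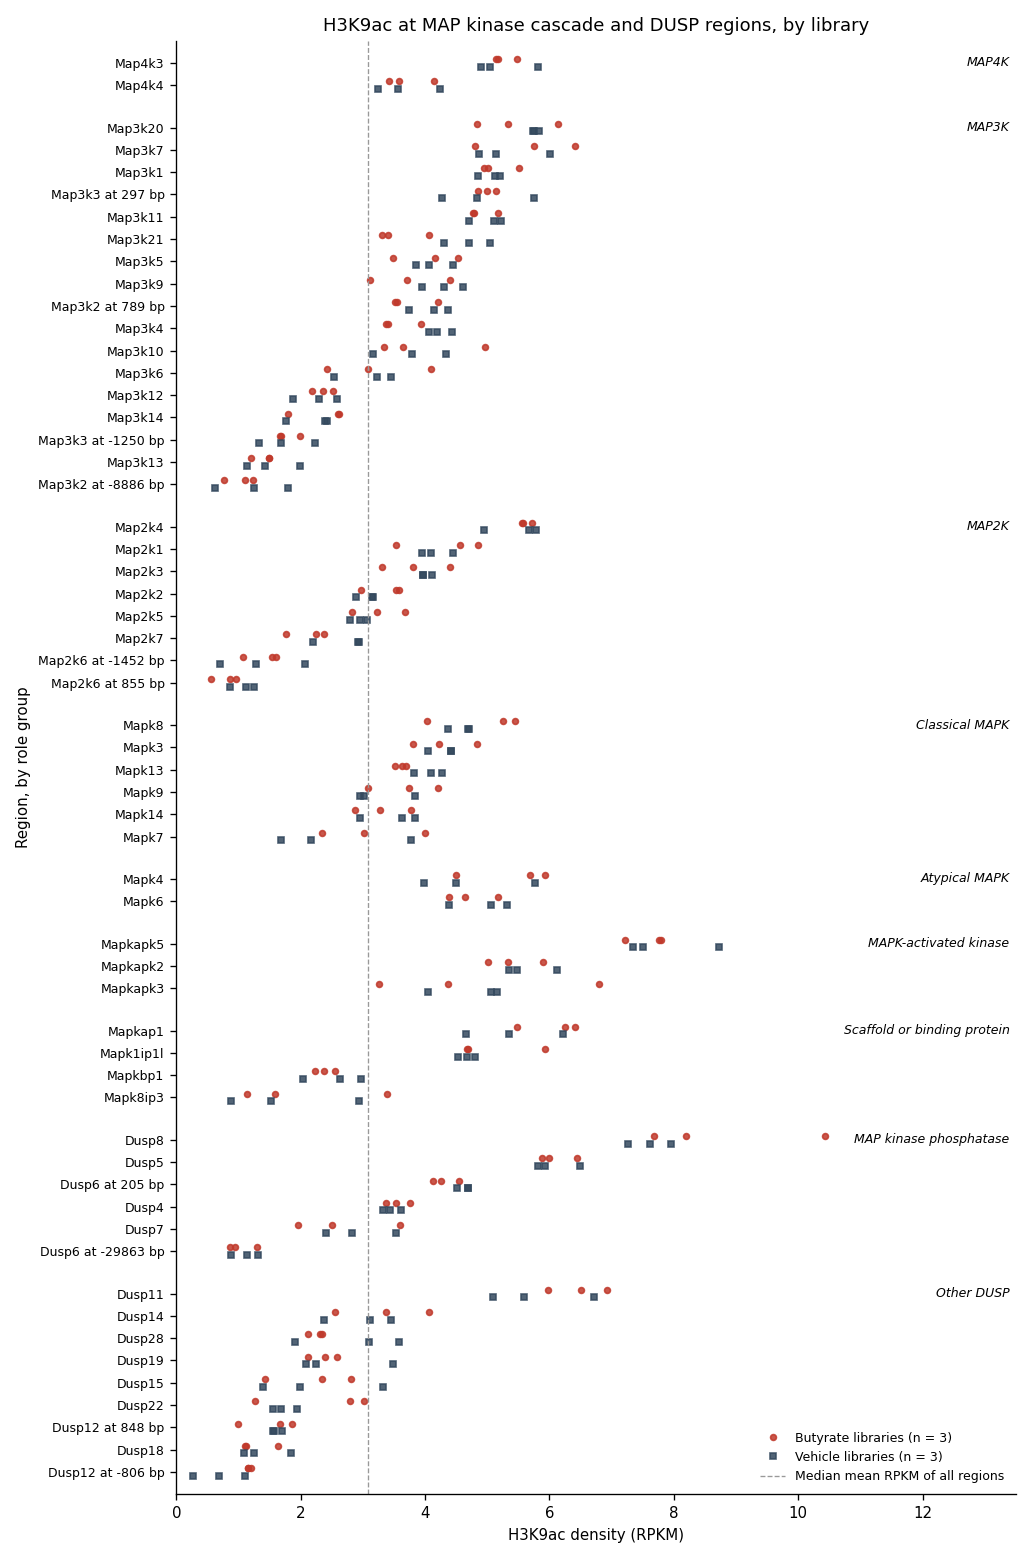
H3K9ac density in RPKM (horizontal axis) at the member regions, grouped by role, with a red circle for each of the 3 butyrate libraries and a dark square for each of the 3 vehicle libraries. The dashed line is the median of the table, 3.09 RPKM. Circles and squares intermingle in nearly all rows, and the spread between regions, 0.930 to 8.19 RPKM in mean level, is much wider than that between the groups.

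The comparison of butyrate with vehicle asked whether exposure to butyrate changes acetylation at these genes. No member changed by the test used. Limma on log2(RPKM + 1), adjusted by Benjamini-Hochberg over all regions tested, called 0 of 56 members and 0 of 10529 regions (0%) at 0.05, and the smallest adjusted p of a member was 0.572, at Map3k21. The other 2 members, of Dusp12 and Map2k6, had a mean below 1 RPKM and were not tested. An unadjusted p under 0.05 was found at 1 of 56 members (1.79%), against 765 regions (7.27%) of the table. That member was lower with butyrate (against 3.91% of the table) and 0 members were higher (against 3.35%). On the reads recovered from the RPKM values, limma's voom called 0 of 58 members and 16 regions (0.142%) of the table, and voom on regions of at least 25 mean reads called 0 of 51 members and 9 regions (0.0995%). The authors' deposited table has 28 regions (0.249%) at its threshold of an FDR of 0.1, with 0 members among them.

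The members' differences were small in size as well as uncalled. The median log2 fold change of butyrate over vehicle was 0.0054 over the 56 members and 0.00 over all regions tested, the SD between regions was 0.11 and 0.17, and 30 members (53.6%, against 50%) lay above 0. Members ranged from -0.31 at Map3k21 to 0.26 at Dusp22, and on the log2(RPKM + 1) scale, which shrinks folds, 0 of 56 exceeded 1.25-fold in either direction, against 624 regions (5.93%) of the table. On scales that shrink folds less, this count depended on the setting. It was 2 of 56 members (3.57%, Map3k21 and Dusp22) against 1337 regions (12.7%) with a pseudocount of 0.25. With voom on all regions it was 6 of 58 members (10.3%) against 2237 regions (19.9%). With voom on regions of at least 25 mean reads it was 3 of 51 members (5.88%) against 884 regions (9.77%). The 95% interval of the fold change lay wholly within 0.5 log2 units of 0 at 48 members (85.7%, against 77.3%). The width of that interval followed depth. Its median distance from estimate to bound was 0.21 log2 units for the 35 members with at least 100 mean reads per library, 0.34 for the 16 with 25 to 100, and 0.42 for the 5 tested members with fewer than 25. At the widest, Mapk8ip3 with 20.2 mean reads, it was 0.60, so a change of 1.25-fold was not detectable at this depth there. The members were covered more deeply than the table, with a median of 156 mean reads per region against 97.7. The part of depth in the narrower spread of the members was not tested. All butyrate libraries lay below all vehicle libraries at 3 of 56 members (5.36%, against 6.85% of the table) and above them at 0 (against 6.11%).

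**Figure D3:**
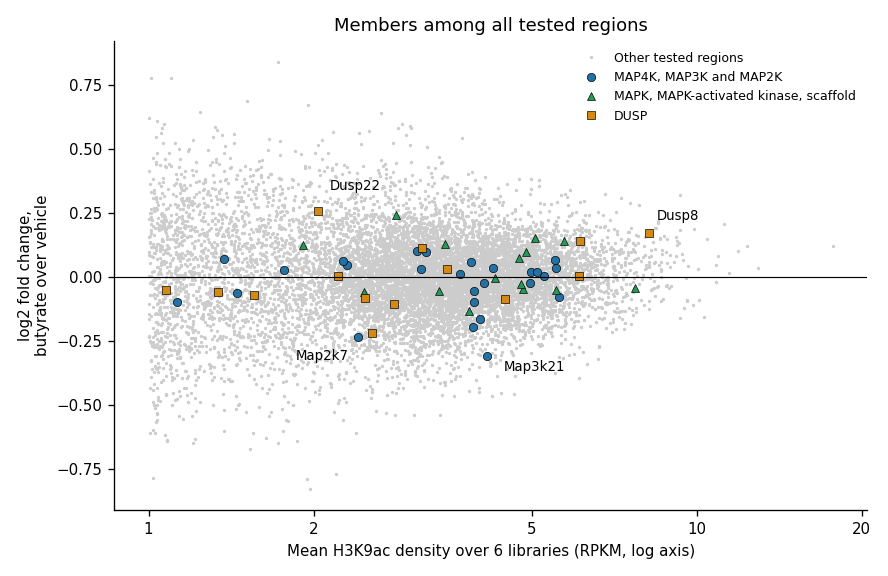
Log2 fold change of butyrate over vehicle (vertical axis, of RPKM + 1) against mean RPKM over the 6 libraries (horizontal log axis) for tested members, coloured by role, over all other tested regions in grey. Members lie within the grey cloud, between -0.31 at Map3k21 and 0.26 at Dusp22.

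At the top of the cascades stand the MAP4Ks, which pass signals to MAP3Ks. Map4k3 and Map4k4 had log2 fold changes of 0.0054 and 0.013, with overlapping groups. Map4k3, a kinase of the germinal centre kinase family, had 5.18, 5.49 and 5.14 RPKM with butyrate and 5.82, 5.05 and 4.90 RPKM with vehicle. Map4k4, of the same family, had 4.14, 3.59 and 3.42 RPKM with butyrate and 3.56, 4.24 and 3.24 RPKM with vehicle.

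Among the MAP3Ks, Map3k21 and Map3k4 had less H3K9ac in every butyrate library than in any vehicle library, and neither passed the adjusted test. Of the 17 regions of this group 8 had a fold change above 0 and 9 below, with a median log2 fold change of -0.02. Map3k21 encodes a mixed-lineage kinase (MLK4), and its region at chr8:125910183-125912424, centred in exon 1, had 4.06, 3.31 and 3.41 RPKM in butyrate libraries S4 to S6, against 4.31, 4.70 and 5.05 RPKM in vehicle libraries S1 to S3. The highest butyrate library was thus just under the lowest vehicle library. The means were 3.60 ± 0.41 RPKM with butyrate and 4.69 ± 0.37 RPKM with vehicle (SD, n = 3 each), a ratio of 0.767. On the log2(RPKM + 1) scale the fold change was -0.31 ± 0.10 (SE), with a 95% interval of -0.53 to -0.09, a limma p of 0.00942 and an adjusted p of 0.572. In the authors' deposited table, where it is the only member with an FDR under 0.2, it has a log2 fold change of -0.37, a p of 0.00184 and an FDR of 0.187. The adjusted p was 0.24 with voom on all regions and 0.304 with voom on regions of at least 25 mean reads, and it lay between 0.24 and 0.758 over all alternatives.

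Map3k4 encodes MEKK4, an activator of p38 and JNK that is bound by GADD45 proteins. Its region at chr17:12317505-12318827 had 3.41, 3.38 and 3.93 RPKM with butyrate, against 4.19, 4.07 and 4.43 RPKM with vehicle, so that the groups did not overlap. The log2 fold change was -0.20 ± 0.10 (limma adjusted p = 0.703). Map3k9, another mixed-lineage kinase (MLK1), had 3.12, 3.72 and 4.41 RPKM with butyrate and 4.30, 4.61 and 3.96 RPKM with vehicle, with overlap and a log2 fold change of -0.16 ± 0.11. The 2 further mixed-lineage kinases, Map3k10 and Map3k11, had log2 fold changes of 0.06 and -0.02.

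Map3k7, which encodes TAK1, the kinase that links cytokine and Toll-like receptors to JNK, p38 and NF-κB, had 5.76, 6.41 and 4.81 RPKM with butyrate and 6.02, 5.15 and 4.87 RPKM with vehicle. These values overlapped throughout, and the log2 fold change was 0.07 with a 95% interval of -0.16 to 0.29. Map3k20 (ZAK), a sensor of stalled ribosomes and the densest of the group, averaged 5.44 ± 0.66 RPKM with butyrate and 5.77 ± 0.06 RPKM with vehicle, with overlap. The longest MAP3K region, Map3k1, which encodes the stress kinase MEKK1, held the most reads of any member (559 per library on average) and had a log2 fold change of 0.02 with an interval of -0.16 to 0.20. Map3k5 (ASK1, activated by oxidative stress) was at -0.02, Map3k14 (NIK, the kinase of the non-canonical NF-κB pathway) at 0.06, and the start region of Map3k2 at 789 bp (MEKK2) at -0.10, all with overlapping groups. The region of Map3k2 at -8886 bp, the sparsest of the group at 1.13 RPKM, was at -0.10 ± 0.22, also with overlap.

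The MAP2Ks are the narrow middle layer, in which each kinase serves 1 or 2 branches. None of the 7 tested regions had groups that did not overlap, and 5 lay above 0 and 2 below. For the ERK branch, Map2k1 (MEK1) had 4.85, 3.54 and 4.56 RPKM with butyrate and 4.46, 4.10 and 3.95 RPKM with vehicle. Map2k2 (MEK2) had 3.54, 2.96 and 3.58 RPKM with butyrate and 2.88, 3.16 and 3.16 RPKM with vehicle. Both overlapped, with log2 fold changes of 0.03 and 0.10. For the JNK branch, Map2k7 (MKK7) had 2.24, 1.76 and 2.38 RPKM with butyrate and 2.93, 2.20 and 2.92 RPKM with vehicle. All 3 butyrate libraries lay below vehicle libraries S1 and S3, but S4 and S6 lay above vehicle library S2, and the log2 fold change was -0.23 ± 0.13 on 54 mean reads (limma adjusted p = 0.725). It was -0.15 without butyrate library S5 and -0.33 without vehicle library S2. Map2k4 (MKK4), the other activator of JNK, was at 0.04. For the p38 branch, Map2k3 was at -0.06 and the region of Map2k6 at -1452 bp at 0.07, while the untested region of Map2k6 at 855 bp averaged 0.789 RPKM with butyrate and 1.08 RPKM with vehicle, with overlap. Map2k5, which activates ERK5, was at 0.10.

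The classical MAP kinases are the effectors themselves, and 1 of 7 had groups that did not overlap, against 13% of all regions tested. This was Mapk13 (p38δ), a p38 kinase known from epithelia, at chr17:28767973-28772489. It had 3.52, 3.64 and 3.69 RPKM with butyrate, against 4.09, 4.27 and 3.82 RPKM with vehicle, and the butyrate libraries spanned a narrower range. Their means were 3.62 ± 0.08 RPKM with butyrate and 4.06 ± 0.22 RPKM with vehicle (SD, n = 3 each). The log2 fold change was -0.13 ± 0.09, with a limma p of 0.18 and an adjusted p of 0.761. In the authors' deposited table its p is 0.0543 and its FDR 0.537. Mapk14 (p38α), the neighbouring gene with a region 74370 bp away, had 3.28, 2.87 and 3.78 RPKM with butyrate and 3.83, 3.64 and 2.95 RPKM with vehicle. There the groups overlapped and the log2 fold change was -0.05 ± 0.12.

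At the start of Mapk3 and at the JNK genes the groups overlapped. Mapk3 (ERK1) had 3.80, 4.22 and 4.83 RPKM with butyrate and 4.41, 4.41 and 4.05 RPKM with vehicle. Its log2 fold change was -0.0054, with a 95% interval of -0.22 to 0.21. Mapk8 (JNK1) had 4.04, 5.45 and 5.26 RPKM with butyrate and 4.68, 4.70 and 4.36 RPKM with vehicle. Mapk9 (JNK2) had 4.20, 3.75 and 3.08 RPKM with butyrate and 2.96, 3.84 and 3.02 RPKM with vehicle. In both JNK genes the butyrate libraries were spread more widely and included the highest and, for Mapk8, also the lowest value, and their log2 fold changes were 0.08 ± 0.10 and 0.13 ± 0.12. The largest estimate of the group, 0.24 ± 0.19 at Mapk7 (ERK5), rested on a 500 bp region with 30.0 mean reads and overlapping groups, and it was 0.09 without butyrate library S6, 0.06 without vehicle library S2 and 0.48 without vehicle library S3. Of the atypical kinases, which lack the usual activation motif, Mapk4 (ERK4) was at 0.15 ± 0.12 and Mapk6 (ERK3) at -0.05 ± 0.10.

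**Figure D4:**
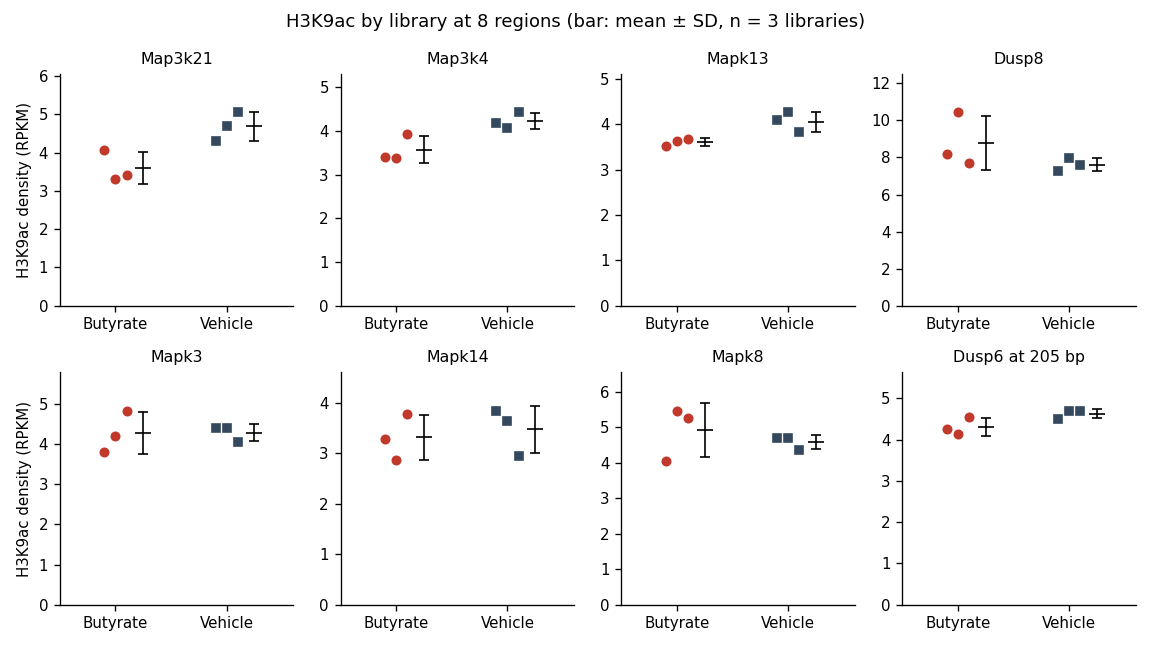
H3K9ac in RPKM by library at 8 member regions, butyrate left of vehicle, with the mean and SD of the 3 libraries beside the points and the vertical axis from 0. The groups stand apart at Map3k21, Map3k4 and Mapk13 and overlap at Dusp8, Mapk3, Mapk14, Mapk8 and the start region of Dusp6.

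Downstream of the MAP kinases, the 3 MAPK-activated kinases had estimates close to 0 and overlapping groups. Mapkapk5 (MK5, a partner of ERK3 and ERK4) averaged 7.59 ± 0.32 RPKM with butyrate and 7.86 ± 0.75 RPKM with vehicle. Mapkapk2 (MK2), the p38 target that stabilises cytokine mRNAs, averaged 5.42 ± 0.45 and 5.65 ± 0.41 RPKM. Mapkapk3 (MK3) had the widest spread of these, with 4.37, 3.26 and 6.80 RPKM with butyrate and 5.16, 5.06 and 4.05 RPKM with vehicle. Its butyrate libraries held both the lowest and the highest value. The 4 scaffold and binding proteins had a median log2 fold change of 0.11, 3 above 0 and 1 below. Mapkap1 (SIN1, a subunit of the kinase complex mTORC2) had 5.48, 6.26 and 6.42 RPKM with butyrate and 4.66, 5.35 and 6.22 RPKM with vehicle, which overlapped, for a log2 fold change of 0.14 ± 0.10 (limma adjusted p = 0.76). Mapk8ip3 (JIP3), a JNK scaffold and motor adaptor, had 1.59, 3.39 and 1.13 RPKM with butyrate and 1.52, 0.879 and 2.94 RPKM with vehicle, values that gave no order between the groups. Mapk1ip1l averaged 5.09 ± 0.72 RPKM with butyrate and 4.67 ± 0.14 RPKM with vehicle (log2 fold change 0.10 ± 0.10). Mapkbp1 averaged 2.39 ± 0.17 and 2.55 ± 0.47 RPKM (-0.06 ± 0.13), and the groups overlapped at both.

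The MAP kinase phosphatases, which switch the kinases off, included the densest member, and none of their 6 regions had groups that did not overlap. Dusp8, a phosphatase of JNK and p38, had 8.19, 10.4 and 7.67 RPKM at chr7:142094381-142095938 with butyrate, against 7.27, 7.95 and 7.61 RPKM with vehicle. Butyrate library S5 stood highest, while S6 lay below vehicle library S2. The means were 8.77 ± 1.47 RPKM with butyrate and 7.61 ± 0.34 RPKM with vehicle (SD, n = 3 each), and the log2 fold change was 0.17 ± 0.09 (limma adjusted p = 0.713). Without S5 it was 0.053, and without S6 0.25. The feedback phosphatase of ERK in the cytoplasm, Dusp6, had 4.26, 4.13 and 4.54 RPKM with butyrate at its start region and 4.51, 4.69 and 4.69 RPKM with vehicle. Only S6 of the butyrate libraries reached the vehicle range, and the log2 fold change was -0.09 ± 0.09 (limma adjusted p = 0.844). The region of Dusp6 at -29863 bp had about 1 RPKM in both groups (1.04 ± 0.23 with butyrate and 1.11 ± 0.22 with vehicle). The ERK phosphatase of the nucleus, Dusp5, averaged 6.10 ± 0.30 RPKM with butyrate and 6.08 ± 0.36 RPKM with vehicle, and its 95% interval of -0.16 to 0.17 was among the narrowest. Dusp4, also nuclear, was at 0.03 and Dusp7, a cytoplasmic relative of Dusp6, at -0.10.

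The other DUSPs are mostly small phosphatases whose substrates are often not MAP kinases. Their 8 tested regions split evenly, 4 above 0 and 4 below, all with overlapping groups, on a median of 29.2 mean reads over the 9 regions. Dusp11, which removes phosphates from the 5′ ends of RNA, was the exception in depth (380 mean reads) and had 6.51, 6.93 and 5.97 RPKM with butyrate and 6.71, 5.59 and 5.09 RPKM with vehicle. Its groups overlapped through vehicle library S1, and the log2 fold change was 0.14 ± 0.10 (limma adjusted p = 0.756). The largest estimates, 0.26 ± 0.20 at Dusp22, a phosphatase of the JNK pathway, and -0.22 ± 0.16 at Dusp28, rested on 500 bp regions with 21.3 and 27.5 mean reads. Single libraries moved both. The log2 fold change of Dusp22 was 0.11 without butyrate library S6 and 0.52 without butyrate library S4, and that of Dusp28 was -0.41 without vehicle library S2 and -0.08 without vehicle library S3. The untested region of Dusp12 at -806 bp had 1.15, 1.16 and 1.20 RPKM with butyrate and 1.11, 0.268 and 0.693 RPKM with vehicle. Every butyrate library was above every vehicle library there, by a small margin over S1 and on 12.7 mean reads.

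**Figure D5:**
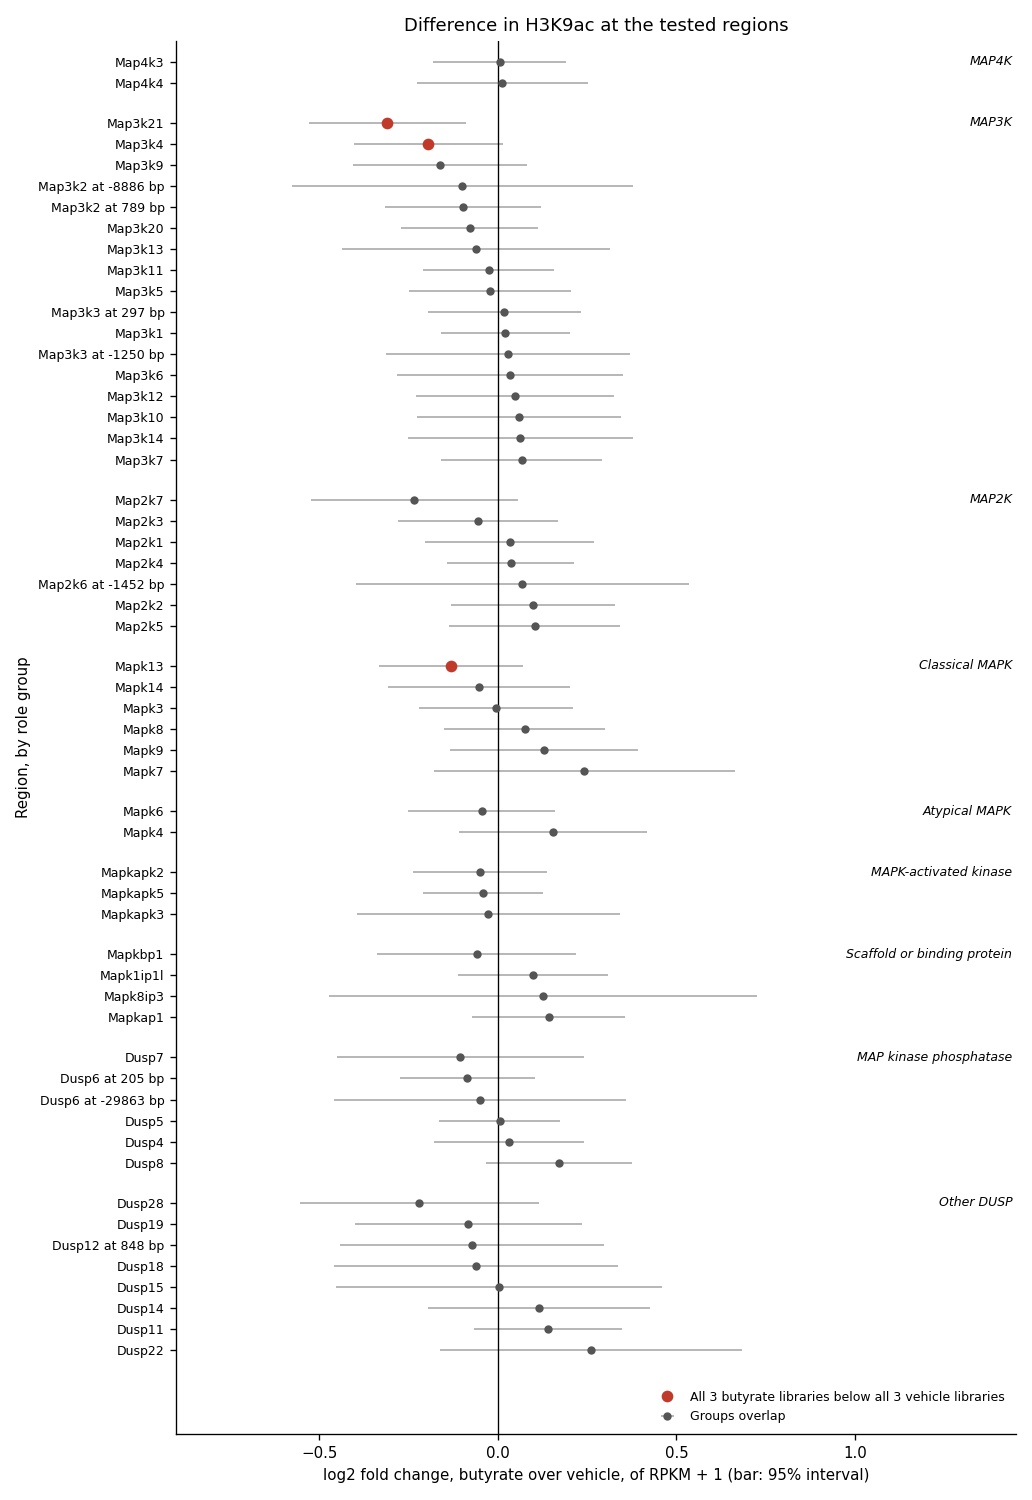
Log2 fold change of butyrate over vehicle (of RPKM + 1) with its 95% interval at tested members, grouped by role. Large red points mark Map3k21, Map3k4 and Mapk13, where all butyrate libraries lay below all vehicle libraries. All intervals drawn but that of Map3k21 cross 0, and that test is before adjustment.

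The surrounding pathway was read from 91 genes in 6 lists by role, of which 68 had a region within 5 kb of their start and 67 were tested. These lists were written with earlier results of these data known, so shares within them are descriptions only. The entry Zak is another name of the member Map3k20 and counts here among those without a region. By limma 0 of 67 passed the adjusted test, 37 were above 0 and 30 below with a median log2 fold change of 0.01, and 3 (4.48%, a smaller share than the 7.27% of all regions tested) had an unadjusted p under 0.05. These were Jun, Mef2a and Fos, of the list of transcription factors, each higher with butyrate. Jun, a subunit of AP-1 and the target that gave JNK its name, had 9.16, 9.23 and 9.22 RPKM with butyrate, against 8.57, 7.18 and 7.59 RPKM with vehicle, without overlap (log2 fold change 0.22 ± 0.07, limma adjusted p = 0.572). Mef2a, a p38 and ERK5 substrate, had 8.40, 8.11 and 8.64 RPKM with butyrate, against 6.25, 6.16 and 7.70 RPKM with vehicle, also without overlap (0.29 ± 0.08, limma adjusted p = 0.572). Fos, the partner of Jun, averaged 8.70 ± 0.66 RPKM with butyrate and 6.97 ± 0.28 RPKM with vehicle (0.28 ± 0.07, limma adjusted p = 0.492). Over the 16 tested genes of this list 9 were above 0 and 7 below, and the 3 named are 18.8% of them. Without overlap, 4 (25%, against 6.11% of the table) were higher and 1 (6.25%, against 6.85%) lower.

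In the other lists no gene had an unadjusted p under 0.05. The 17 TAK1 partners and stress inputs had 13 above 0 and 4 below, with a median of 0.08, and 4 of them (23.5%, against 6.11% of the table) were higher and 1 (5.88%, against 6.85%) lower without overlap. Pak2, a kinase activated by the GTPases Rac and Cdc42, averaged 4.18 ± 0.23 RPKM with butyrate and 3.51 ± 0.05 RPKM with vehicle (0.20 ± 0.09, limma adjusted p = 0.692). Tab2, the adaptor of TAK1, averaged 5.82 ± 0.13 and 5.18 ± 0.24 RPKM (0.14 ± 0.08, limma adjusted p = 0.716), without overlap, and Cdc42 had 0.18 ± 0.09 with overlap. The 4 feedback inhibitors tested, Spry2, Spred1, Spred2 and Erf, all had estimates below 0, from -0.14 at Spred2 to -0.06 at Erf, with overlapping groups. The 16 genes of Ras and Raf divided into 8 above 0 and 8 below, all with overlapping groups. The 6 MAPK-activated kinases with other names divided into 3 and 3, and the 8 other phosphatases into 4 and 4. Among these kinases 1 gene (Rps6ka1) was lower without overlap and 0 were higher. Among these phosphatases 1 gene (Ppp2r2a) was lower without overlap and 0 were higher. Over all 67 tested pathway genes, 8 (11.9%, against 6.11% of the table) were higher and 4 (5.97%, against 6.85%) lower without overlap.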

How the data were processed

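H3K9ac chromatin immunoprecipitation was sequenced in ileal epithelial cells of butyrate and vehicle mice. Per the submitters' processing notes, the authors used mm10 as the build, and their tools included HOMER, STAR, Picard and edgeR, named without versions or roles. The calling of regions and the counting of reads are not described in the sources used here. The deposited table gives, per the file headers, RPKM per library, and the authors' log2 fold change, p-value, FDR and status. The authors' mean columns, including mean CPM, were not used for any result. Coordinates are those of the deposited table.

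The deposited RPKM values were whole multiples of 1 read for 100% of values (tolerance 0.01 reads), which gave reads per region. Replicates differed by more than counting noise (chi-square per degree of freedom 1.95 to 2.11 for pairs within a group). Their number, 3 per group, limits the precision. An exact permutation test of 3 libraries against 3 cannot go below 0.1, so the fit across all regions was used.

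The main test was limma 3.58.1 under R 4.3.3, comparing butyrate with vehicle on log2(RPKM + 1) with trend and robust settings. Regions with a mean under 1 RPKM were left out (722 of 11251), and p-values were adjusted by Benjamini-Hochberg over the 10529 regions tested. On this scale the fold changes of regions with low values come out too small. Alternatives were limma's voom on the recovered reads, pseudocounts of 0.25 and 0.1, other filters and scalings, narrower choices of members, and leaving out each library. The fit was tested on simulated data.

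The members and gene lists were chosen with earlier results of these data known. All members enter the fits and counts, and 1 of them is not reported here by name and not drawn in the figures. Those described one by one were, per role, the 3 with the smallest p and the highest and lowest levels, any with an unadjusted p under 0.05, the start regions of Mapk3, Mapk8, Mapk9, Mapk14, Map2k1, Map2k2, Map3k7 and Dusp6, and a few more by their known role. Of other pathway genes, the 3 with the smallest p of a list could be named. Starts come from GENCODE M21 and promoter windows from RefSeq, both on GRCm38.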

Additional observations from a re-analysis of the deposited data

How the results depend on the processing

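Limma called 0 regions over the table, against 16 by voom on all regions and 9 by voom on regions of at least 25 mean reads, and 0 members were called in any alternative. The unadjusted p was under 0.05 at 1068 and 751 regions in these voom fits, against 765 with limma. The median log2 fold change over members stayed between -0.02 and 0.02, within the spread of the member median between libraries (SD 0.03). Over 35 named regions, 451 of 483 values under the alternatives kept their sign, none passed an adjusted p of 0.05, and the lowest adjusted p was 0.24. The 32 changes of sign fell at 15 regions whose log2 fold change was at most 0.13 in size, and the cause was not tested. Map4k3 was at -0.0088 in both voom fits. Leaving out 1 library at a time gave log2 fold changes of -0.14 to 0.019 at Dusp6 at -29863 bp, -0.28 to 0.043 at Dusp7, -0.039 to 0.14 at Map2k1, -0.024 to 0.071 at Map2k4, -0.31 to 0.084 at Map3k2 at -8886 bp, -0.015 to 0.16 at Map3k7, -0.035 to 0.069 at Map4k3, -0.056 to 0.10 at Map4k4, -0.14 to 0.022 at Mapk14, -0.079 to 0.062 at Mapk3, -0.11 to 0.0030 at Mapk6, -0.17 to 0.41 at Mapk8ip3, -0.26 to 0.17 at Mapkapk3, -0.083 to 0.028 at Mapkapk5 and -0.17 to 0.026 at Mapkbp1. The regions whose groups did not overlap stayed between -0.38 and -0.26 (Map3k21), -0.25 and -0.16 (Map3k4), and -0.17 and -0.10 (Mapk13). Planned fits of the recovered reads with edgeR and DESeq2 are not given, and voom is the only fit of those reads reported here. The deposited unit is RPKM and not counts. No paired analysis was possible because the columns of the deposited table carry no replicate number of the labels. Depth limits the weakest regions, since 7 members had under 25 mean reads per library.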
